A study of Rattus norvegicus with 27 samples.

Results

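The genes described here are the precursors of 10 neuropeptides: Penk, Pdyn, Sst, Npy, Cck, Vip, Tac1, Nts, Crh and Calca. They were chosen by name, as the genes of the count table whose symbol equalled a listed member, and all 10 were found among 17321 genes. Messenger RNA had been sequenced from punches of the interpositus nucleus (IP) of the cerebellum of adult Long-Evans rats at postnatal day 70. Rats had been reared normally (NT), or with limited bedding (LB) from postnatal day 2 to 9 and normally from then on. There were 12 females, 5 of them NT and 7 LB, and 15 males, 7 of them NT and 8 LB. Animals are named here by their sample titles. The labels give no dam, litter or cage. Pups had been cross-fostered, and limited bedding had then been given to randomly chosen cages. Pups of the same cage are therefore not independent replicates of rearing, and p-values measure the spread between these animals, not between cages.

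Neuropeptides are made as larger precursor proteins, which convertases cut into active peptides inside dense-core vesicles. The peptides are released with a fast transmitter and act on G-protein-coupled receptors, often at a distance from the release site. In the forebrain, several of these precursors, such as Sst, Vip and Cck, are standard markers of classes of neurons. The IP is one of the deep nuclei through which the cerebellum sends its output, under inhibition from Purkinje cells. Peptides also reach the cerebellum in incoming fibres, among them corticotropin-releasing hormone in climbing fibres, but messenger RNA is found mostly at the cell body, so a punch reports on cells that lie inside it.

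Several precursor genes carry near their start a cAMP response element, the site at which CREB, a factor activated by cAMP and calcium, binds DNA. The RefSeq promoter table (build GRCr8, not the rn6 build of the counts) held 7 of the 10 members: Pdyn, Sst, Npy, Vip, Tac1, Nts and Calca. Windows from 250 bases before to 50 bases after the gene start were searched on both strands for the palindrome TGACGTCA and for its half-site TGACG, which the palindrome contains. The half-site was present in 5 of the 7, against 21.2% of 33469 promoters of the same length, and the palindrome in 1, Sst, against 1.83%. The matches are printed because Sst and Vip are textbook genes for this element and because these 5 genes are compared throughout. Capitals mark the match (CGTCA is the half-site on the other strand), and each sequence runs 5′ to 3′ in the direction of the gene.
Sst, chr11:90461523-90461570, plus strand: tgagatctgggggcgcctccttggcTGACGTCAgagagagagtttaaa
Vip, chr1:44470358-44470412, plus strand: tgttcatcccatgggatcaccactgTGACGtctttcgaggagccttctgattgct
Tac1, chr4:36645352-36645406, plus strand: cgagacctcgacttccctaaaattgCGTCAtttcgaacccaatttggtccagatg
Nts, chr7:39461030-39461084, minus strand: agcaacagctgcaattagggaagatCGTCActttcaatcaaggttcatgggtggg
Calca, chr1:178317612-178317666, minus strand: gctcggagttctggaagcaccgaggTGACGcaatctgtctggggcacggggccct
The windows of Pdyn and Npy held neither motif. A match is a description of letters and not a measured binding site.

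Total counts per animal ran from 11836684 to 24169170, with a median of 16034036, so that 3 counts, used here as the floor of detection, corresponded to between 0.125 and 0.260 CPM (normalised counts scaled to a library of fixed size). Markers of the main cerebellar neurons were present in every animal: the summed level of 7 granule cell markers was between 2583 and 8714 CPM, and that of 6 Purkinje cell markers between 2319 and 5882 CPM. Slc17a6, the vesicular glutamate transporter that deep nucleus projection neurons use, was low in most animals. It lay between 1.04 and 3.26 CPM in all 12 females, and between 0.280 and 380 CPM in the males. In bulk tissue, fewer cells of a type and less RNA per cell cannot be told apart.

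Levels of different genes were compared per length, as TPM, which divides counts by transcript length before scaling. Penk was the highest of the 10, with a median of 137 TPM over the 27 animals, above 92.7% of all genes. Sst followed at 68.5 TPM, above 85.3% of genes, and Cck at 14.6 TPM, above 58.6%. Tac1 (1.29 TPM), Nts (1.02), Pdyn (0.840), Vip (0.740), Calca (0.480) and Crh (0.254) all lay near or below 1 TPM at the median, and Npy was at 0. In the NT females, the ranges of Penk, Sst and Cck did not overlap, while those of the neighbours from Cck down to Nts did. In NT males and LB males, the ranges of Penk and Sst overlapped each other, and so did those of Sst and Cck.

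**Figure D1:**
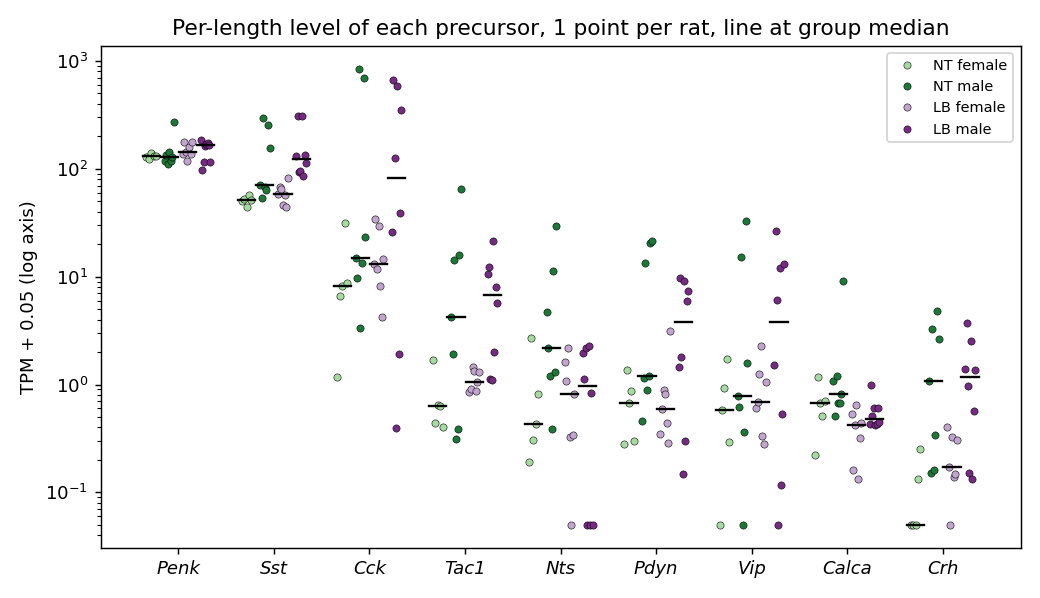
Per-length level (TPM + 0.05, log axis) of 9 precursors in each of the 27 rats, coloured by group, with a line at the median of each group. Penk lies in a narrow band near its median of 137 TPM, while Cck runs from 0.344 to 848 TPM; Npy, with at most 2 counts in any animal, is not drawn.

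Penk encodes the enkephalins, opioid peptides with high affinity for delta and mu receptors (chromosome 5, 17056419 to 17061361, minus strand, rn6). It was detected in every animal, and was the least variable member, with a coefficient of variation of 27.7% over the 27 animals. The 5 NT females had 86.8, 88.5, 97.2, 97.5 and 100.3 CPM. NT males ran from 97.3 to 227 CPM with a median of 111, LB females from 80.5 to 199 with a median of 119, and LB males from 98.3 to 168 with a median of 139. Of the 7 NT males, 6 lay above every NT female, but the group ranges overlapped in all comparisons. The difference between NT males and NT females was 0.43 ± 0.19 (log2 fold change ± SE) and did not pass the threshold (adjusted p = 0.125), and that between LB and NT females was also 0.43 ± 0.19 (adjusted p = 0.597).

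Pdyn encodes the dynorphins, opioid peptides of the kappa receptor (chromosome 3, 122194329 to 122206671, minus strand). The 5 NT females had 0.268, 0.316, 0.739, 1.02 and 1.55 CPM, and the LB females had between 0.302 and 4.32 CPM with a median of 0.883. NT males ran from 0.694 to 30.1 CPM with a median of 1.60, and LB males from 0.133 to 16.2 CPM with a median of 6.25. The males did not form a shifted group but a spread one: 3 NT males (3113, 6111 and 6112) had between 21.8 and 30.1 CPM, while the other 4 lay between 0.694 and 1.60 CPM, near the 0.268 to 1.55 CPM of the NT females. The difference of 3.98 ± 1.11 between NT males and NT females passed the threshold (adjusted p = 0.0220).

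Sst encodes somatostatin, an inhibitory peptide that in the forebrain marks a class of GABAergic interneurons (chromosome 11, 80358172 to 80359449, plus strand). The NT females had 14.1, 15.8, 16.7, 17.5 and 19.1 CPM. NT males ran from 19.8 to 128.5 CPM with a median of 32.6, so that the lowest NT male was just above the highest NT female. Sst was the only member whose ranges did not overlap between those groups, as was the case for 7.24% of all genes tested. The difference was 1.74 ± 0.45 (adjusted p = 0.0171). LB females had between 14.3 and 34.2 CPM and LB males between 33.5 and 140 CPM, with medians of 22.8 and 50.3, and 7 of the 8 LB males lay above every LB female, though the ranges overlapped, as they did for all but 0.273% of genes. That difference was of a like size, 1.57 ± 0.39, but did not pass the threshold (adjusted p = 0.0688).

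Npy encodes neuropeptide Y. No animal had more than 2 counts, and 19 of 27 had none. The gene model of the table (chromosome 4, 79557856 to 79581210, plus strand) holds 8 exons that fall into 2 runs of 4, at 79557856 to 79565057 and at 79574010 to 79581210, with the same widths exon by exon and an offset of 16153 or 16154 bases. The table held 207 genes with such a repeated model. Of these, 180 (87.0%) had a median under 3 counts, as against 27.4% of all genes. How reads that map to more than one place were counted is not given in the sources used here, and the level of Npy therefore cannot be read from these counts. The gene did not pass the filter on low counts, and the other 9 members did.

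Cck encodes cholecystokinin, which in the forebrain is made by pyramidal cells and by a class of interneurons (chromosome 8, 130120525 to 130127109, minus strand). It spanned the widest range of CPM within the males. The NT females had 0.375, 2.26, 2.76, 3.16 and 11.1 CPM, and the LB females between 1.51 and 18.5 CPM with a median of 5.39. In the males, 2 NT animals (3113 and 6111, at 394 and 295 CPM) and 3 LB animals (122, 7122 and 9123, at 328, 280 and 174 CPM) stood far above the rest. The next male was LB male 123 at 63.1 CPM, and the remaining 9 males had between 0.133 and 18.04 CPM, within or below the range of the females. The mean of the NT males was 26.03 times that of the NT females, while the median was 2.64 times as high. The difference was 4.69 ± 1.53 in NT (adjusted p = 0.0395) and 3.97 ± 1.26 in LB (adjusted p = 0.123).

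Vip encodes vasoactive intestinal peptide, which in the cortex marks interneurons that inhibit other interneurons (chromosome 1, 42169501 to 42177581, plus strand). The NT females had 0, 0.189, 0.388, 0.640 and 1.27 CPM, and LB females between 0.181 and 1.56 CPM. The 5 males with the highest Cck were also the 5 with the highest Vip, at 12.4 to 29.6 CPM, followed by LB male 123 at 6.51 CPM. The other 9 males had at most 1.34 CPM. The difference of 3.72 ± 1.38 between NT males and NT females did not pass the threshold (adjusted p = 0.0639), nor did that in LB, 3.38 ± 1.15 (adjusted p = 0.143).

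Crh encodes corticotropin-releasing hormone, the peptide that starts the pituitary and adrenal response to stress (chromosome 2, 104459999 to 104461863, minus strand). All 5 NT females were under the floor, with 0, 0, 0, 1 and 2 counts. The 7 NT males had between 1 and 46 counts, and 5 of them reached 3 counts. Summed over animals and set against the library sizes, 138 counts in the NT males and 3 in the NT females gave a ratio of 39.6, with an exact 95% interval of 13.3 to 194 that covers counting error only. The fitted difference passed the threshold (adjusted p = 0.0123), but its size depends on the small count added by the model and is not printed. Crh passed the filter on low counts only through males, since no female reached 10 counts. In LB, 3 of 7 females and 6 of 8 males reached 3 counts, and males had between 0.0594 and 3.04 CPM against 0 to 0.248 CPM in females (adjusted p = 0.0919). Crh was highest in NT male 6111 (3.38 CPM), and 4 of the 5 males with the highest Cck were the 4 highest in Crh.

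Tac1 encodes substance P and neurokinin A (chromosome 4, 33638853 to 33646821, plus strand). The NT females had 0.189, 0.194, 0.295, 0.306 and 0.804 CPM. LB females were close together at 0.435 to 0.869 CPM. NT males ran from 0.140 to 39.2 CPM with a median of 3.04, the highest being NT male 6112, and LB males from 0.597 to 14.98 CPM with a median of 4.78. Of the males, 5 of 7 in NT and 6 of 8 in LB lay above every female of the same rearing. The difference was 4.62 ± 1.07 in NT (adjusted p = 0.0123) and 3.06 ± 0.85 in LB (adjusted p = 0.0978).

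Nts encodes neurotensin (chromosome 7, 44111594 to 44120998, minus strand). The NT females had 0.0536, 0.0985, 0.153, 0.316 and 1.03 CPM, and the NT males between 0.140 and 13.6 CPM with a median of 0.963. NT male 6112 was again the highest, followed by NT male 4113 at 5.13 CPM and NT male 3111 at 2.60 CPM. LB females had up to 1.01 CPM and LB males up to 1.23 CPM, with overlapping ranges and 3 LB males at 0. The difference was 3.39 ± 1.06 in NT (adjusted p = 0.0333) and 0.41 ± 0.91 in LB (adjusted p = 0.845). NT male 4113 also held the highest summed level of 6 choroid plexus markers, 6494 CPM, of which Ttr, transthyretin, was 6342 CPM, while the other 26 animals had at most 256 CPM. Its part in the Nts level was not tested.

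Calca yields calcitonin or, through another splice form, the vasodilator CGRP (chromosome 1, 184184018 to 184188911, minus strand). Counts per gene do not separate the products, and its close paralog Calcb had at most 13 counts in any animal. Calca lay between 0.0543 and 0.999 CPM in 26 animals, from 1 to 18 counts each, and at 6.95 CPM (124 counts) in NT male 6112. The NT females had 0.107, 0.306, 0.394, 0.442 and 0.711 CPM. The difference between NT males and NT females was 1.99 ± 0.64 (adjusted p = 0.0364), and that in LB was 0.84 ± 0.62 (adjusted p = 0.501).

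**Figure D2:**
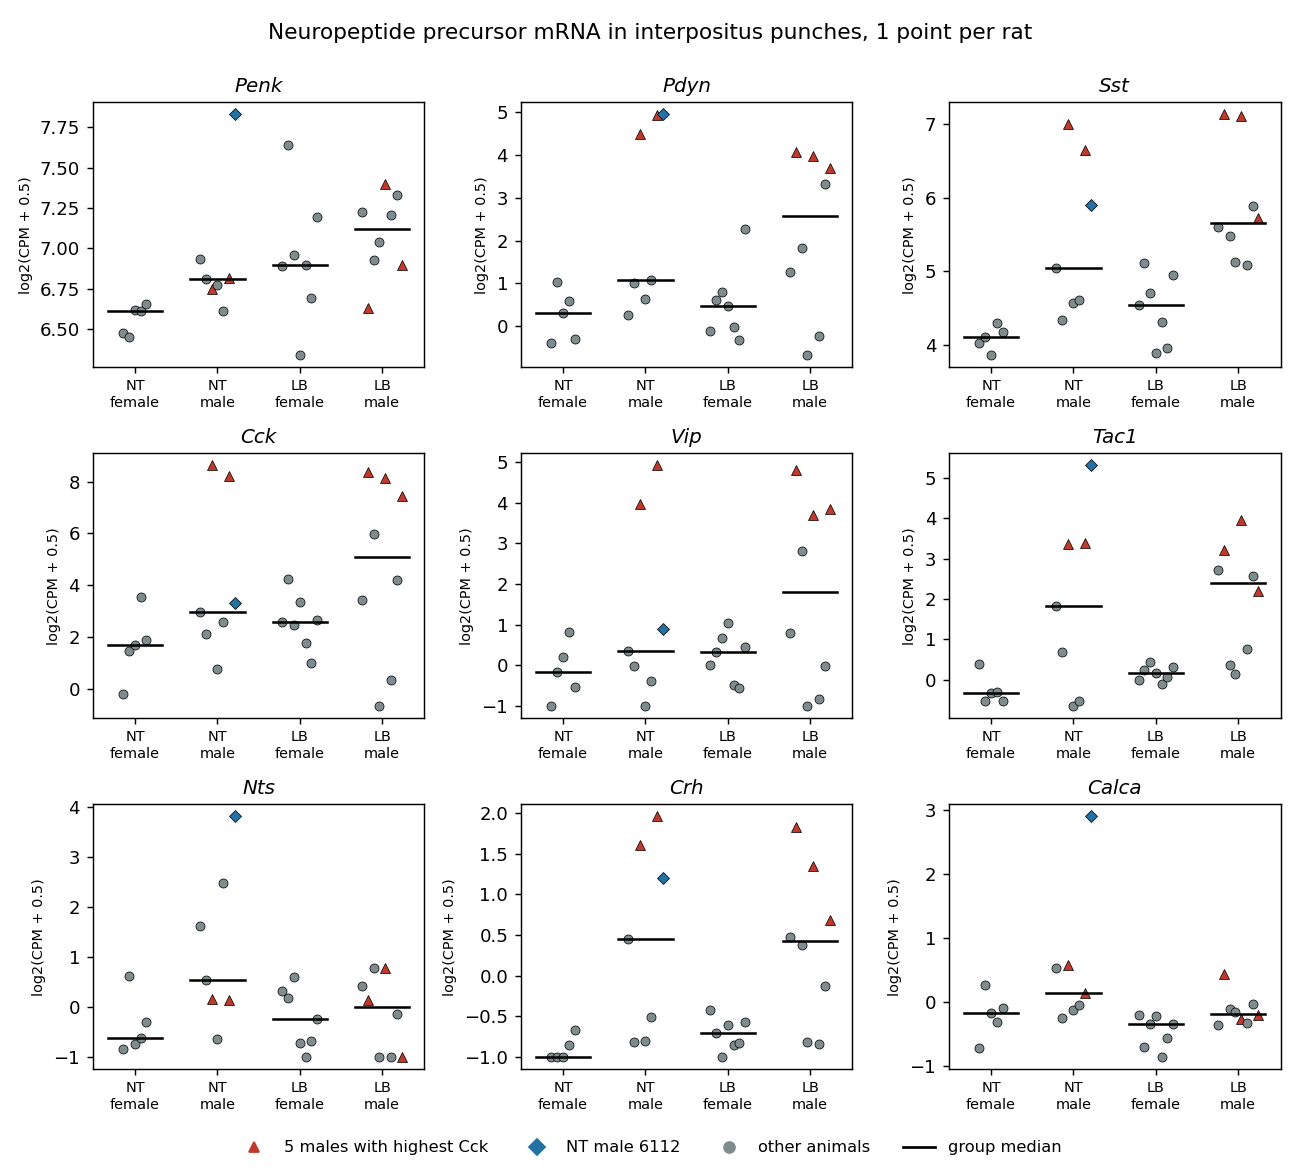
Normalised level (log2 of CPM + 0.5; each panel has its own axis) of the 9 tested precursors in the 4 groups, 1 point per rat, with a line at the group median. Red triangles mark the 5 males with the highest Cck and the blue diamond NT male 6112; the 5 males are the highest in Cck and Vip, and NT male 6112 is the highest in Penk, Pdyn, Tac1, Nts and Calca.

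Between males and females of the NT groups, 7 of the 9 tested members were higher in males at an adjusted p under 0.05 (quasi-likelihood test of edgeR, Benjamini-Hochberg adjusted over 12107 genes): Pdyn, Sst, Cck, Tac1, Nts, Crh and Calca. No member was higher in females. The same comparison called 15.2% of all genes, 10.1% as higher in males and 5.08% as higher in females, and 33.1% of genes had an unadjusted p under 0.05, as did all 9 members. All 9 members had a positive difference, with a median of 3.72 on the log2 scale, where the median of all genes tested was 0.03. Over all males and females, irrespective of rearing, the same 7 and Vip were higher in males, 8 of 9, where 29.3% of all genes were called and 16.9% as higher in males, 12.4% as higher in females, and 42.1% were under 0.05 before adjustment. Penk passed in neither comparison, and Vip only in the second. In NT, limma-voom called 1 member, Sst (10.3% of genes, 5.1% as higher in males), DESeq2 called 8 (20.5% of genes), and limma-voom with the beginning of the title as a random block called 0 (0.0165% of genes).

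Of the 9 tested members, 5 (Penk, Pdyn, Sst, Cck and Vip) reached the filter's cutoff of 0.624 CPM in enough females, at least 5, to pass on females alone. The other 4, Tac1, Nts, Crh and Calca, did not pass on females alone, so the direction of their sex difference was tied to the filter. For Calca, 4 males and 1 female reached the cutoff, so it did not pass on males alone either. Of the 5, 3 were called in NT: Pdyn, Sst and Cck. Markers of other cells differed between NT males and females as well. Higher in males were 5 of 5 tested oligodendrocyte markers (median 1.34), 3 of 3 cholinergic motor neuron markers (median 5.68), 3 of 6 deep nucleus markers (median 1.67) and 3 of 5 microglia markers (median 0.75). Lower in males were 3 of 7 granule cell markers (median -0.71) and 3 of 6 Purkinje cell markers (median -0.51). In LB, 0 markers of these 6 lists passed the threshold. The 5 cholinergic motor neuron markers together summed to only 0.492 to 0.631 CPM in the NT females. The 3 tested ones thus passed the filter through other animals, and the direction of their NT difference was tied to it. In NT male 6112 these 5 markers summed to 217 CPM, against at most 17.7 CPM in any other animal. Among the other lists, 2 of 8 forebrain, 2 of 5 choroid plexus and 1 of 6 meninges markers were higher in NT males. So were 1 of 4 Golgi and glycinergic, 1 of 2 monoamine neuron and 1 of 5 astrocyte markers, and 0 of 4 endothelial markers were called. In LB, 3 of 6 meninges markers were higher in males (median 0.94), where 0.248% of genes were called. The part of all these markers in the precursor differences was not tested.

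Between LB males and LB females, no member passed the threshold, in a comparison that called 0.248% of all genes, 0.206% as higher in males and 0.0413% as higher in females. All 9 differences were again positive, with a median of 2.56, and 6 members had an unadjusted p under 0.05, where 17% of genes did. DESeq2 called 4 of them (Cck, Crh, Sst and Tac1) and limma-voom 0. That 7 members passed in NT and 0 in LB does not show a difference between the rearing conditions: the interaction of sex and treatment, which tests it, called no member and 0% of genes. All 9 interaction terms were negative, with a median of -1.16, and Nts alone had an unadjusted p under 0.05, as did 4.71% of genes, at -2.99 ± 1.37 (adjusted p = 1.00). DESeq2 and limma-voom also called 0 interactions among the members.

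Limited bedding moved no member past the threshold. In males, LB against NT called 0 members and 0% of genes, with 2 members, and 10% of genes, at an unadjusted p under 0.05: Nts at -2.62 ± 0.83 and Calca at -1.85 ± 0.54 (adjusted p = 0.462 for both). NT male 6112 was the highest animal in both. Without it, Nts was at -1.59 ± 0.78 (adjusted p = 0.939), and Calca no longer passed the filter on low counts. The Nts ranges were 0.140 to 13.6 CPM in NT males and 0 to 1.23 CPM in LB males and overlapped. In females, 0 members and 0.00826% of genes were called, with Penk the only member at an unadjusted p under 0.05, as were 7.94% of genes, and 6 of 7 LB females lay above every NT female in Penk. No member's ranges were apart between LB and NT, in females (0.33% of genes were) or in males (0.00826%). Over both sexes, LB against NT called 0 members and 0.00826% of genes, with Penk (0.27 ± 0.13, adjusted p = 0.322) and Calca (-1.27 ± 0.44, adjusted p = 0.204) under 0.05 before adjustment, as were 14.9% of genes. Limma-voom called 0 members in each of these comparisons, and DESeq2 0 in males and in females. Over both sexes, DESeq2 gave an adjusted p to only 1 of the 9 members, which was not called, and to 2014 genes, of which 103 were called, all higher in LB. With standard errors between 0.66 and 1.08 for Pdyn, Cck, Vip, Tac1, Nts and Crh in males, differences of 2-fold in these genes were not detectable.

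**Figure D3:**
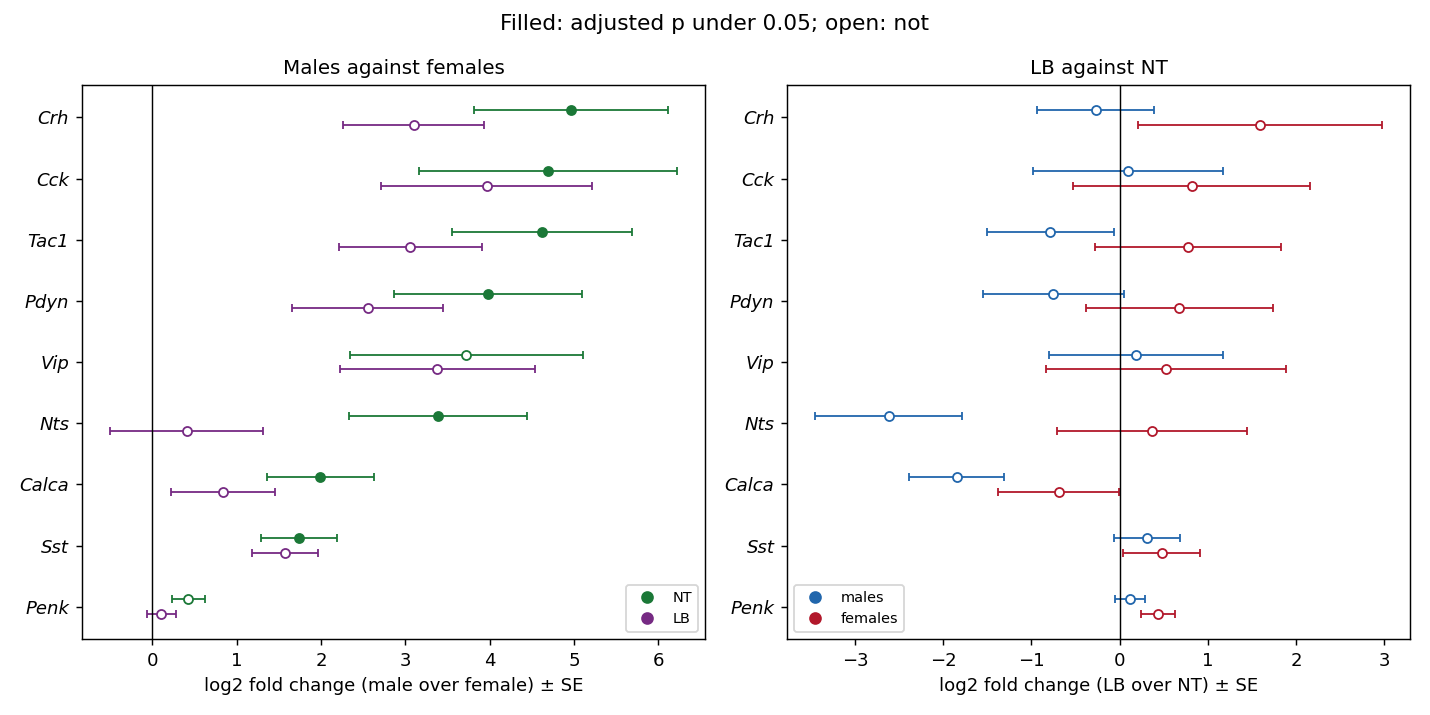
Log2 fold change ± SE of the 9 tested precursors, males over females in NT and in LB (left) and LB over NT in males and in females (right); filled points passed an adjusted p of 0.05. In NT, 7 sex differences are filled, and none of the LB sex differences or rearing differences is. The size drawn for Crh in NT depends on the small count added by the model.

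The high values were shared between genes within animals. Over the 27 animals, 35 of the 36 pairs of tested members had a positive Spearman correlation (median 0.508), from -0.114 for Penk and Calca to 0.903 for Cck and Vip. These correlations are descriptions, since the points share library, depth and group. One set of animals was formed by the 5 males with the highest Cck, chosen after the values were seen. They held ranks 1 to 5 in Cck and Vip and were above all animals but NT male 6112 in Pdyn, at 12.4 to 29.6 CPM. They came from both rearing groups and from 5 different sets of titles (a set being the animals with the same title up to its final digit), and their title mates had between 0.133 and 63.1 CPM of Cck. The summed level of 8 forebrain neuron markers was 569 to 772 CPM in the 5 males, 307 in NT male 6112 and 414 to 673 in the other 21 animals, and no marker of that list was at 0 throughout. Granule cell markers summed to 4399 to 6265 CPM there. The part of these transcripts in the precursor levels was not tested.

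NT male 6112 was the other animal apart. It ranked first of the 27 in Tac1, Nts, Calca, Pdyn and Penk, but had 9.52 CPM of Cck and 1.34 CPM of Vip. The sum of 5 cholinergic motor neuron markers was 217 CPM in this animal, mostly the choline transporter Slc5a7 at 131 CPM, against at most 17.7 CPM in any other animal. Isl1 of that list, a transcription factor of motor neurons, was at 0 in all females and in the 5 males with the highest Cck, and was highest in LB male 9122 (1.24 CPM), with NT male 6112 next at 0.672 CPM. Its 6 deep nucleus markers summed to 3945 CPM, with Slc17a6 at 380 and Spp1 at 442 CPM, against at most 1672 CPM elsewhere. Monoamine neuron markers summed to 16.7 CPM against at most 3.54 CPM, and oligodendrocyte markers to 43850 CPM, within the range of the other animals (7001 to 50420 CPM). Its granule cell sum, 2583 CPM, was the lowest of the 27. Whether these transcripts account for its peptide levels was not tested.

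**Figure D4:**
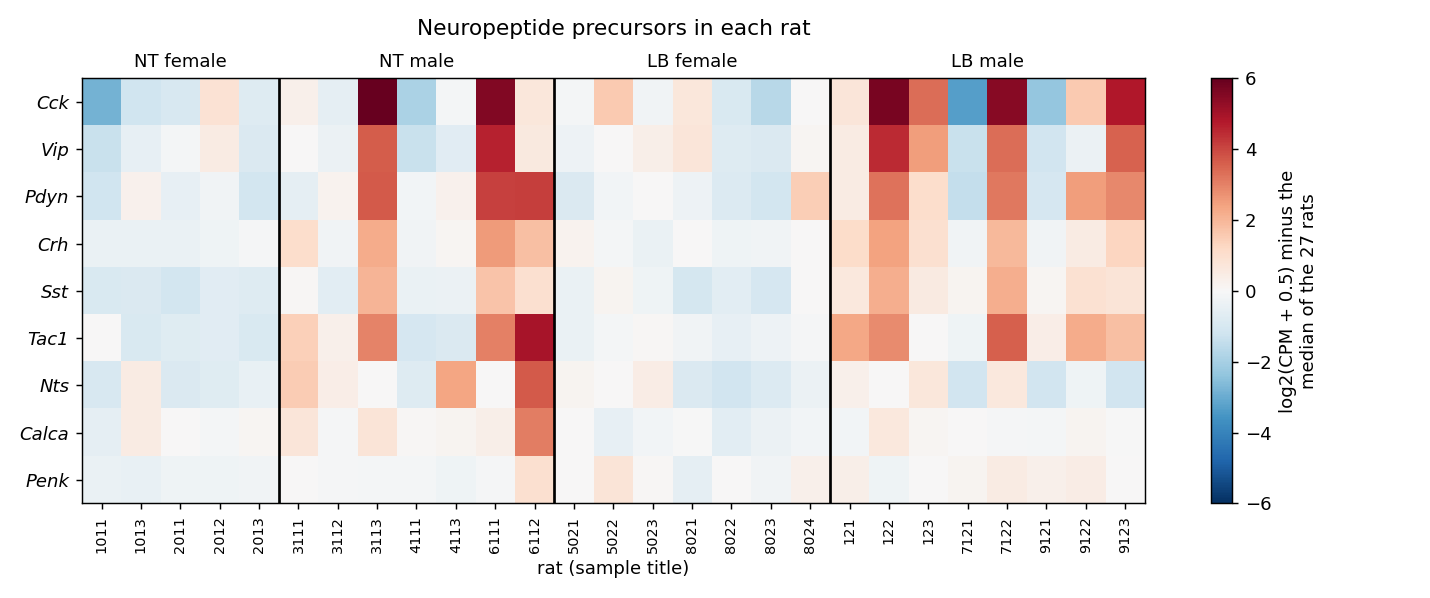
Each column is a rat and each row a precursor; colour gives log2(CPM + 0.5) minus the median of the 27 rats for that gene, red above and blue below. The 5 males 3113, 6111, 122, 7122 and 9123 are red in Cck, Vip, Pdyn, Crh, Sst and Tac1, with 9123 paler in Sst, and NT male 6112 is deepest in Tac1, Pdyn, Nts and Calca.

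Without the 5 males with the highest Cck, 3 members (Sst, Tac1 and Nts) remained higher in NT males than in NT females, of 7 that still passed the filter on low counts. That fit called 11.9% of genes, 8.2% as higher in males. The animals were chosen for Cck, so the lower differences in Cck (0.47) and Vip (0.19) follow from the choice and are a description. Tac1 was at 4.53 ± 1.11. Without these 5 and NT male 6112, no member was called: Tac1 was at 1.58 ± 0.79 (adjusted p = 0.192), Sst at 0.61 ± 0.23 (adjusted p = 0.0918), Nts at 2.82 ± 0.96 (adjusted p = 0.0701) and Pdyn at 0.68 ± 0.89. The males left out held 3113, 6111 and 6112, the highest of the 7 NT males in Pdyn, Sst and Tac1. NT male 6112 was also the highest in Nts. Lower differences in these genes thus follow from the choice too and are a description, in a fit with fewer NT males. Across all genes, that fit called 752 in place of 1840, or 6.28%. Crh and Calca no longer passed the filter in either fit. Over all males and females, Sst and Tac1 remained called without the 6 males, where 18.4% of genes were. Leaving out NT male 6112 alone ended the NT call of Nts (2.37 ± 0.96, adjusted p = 0.0957), and Calca no longer passed the filter, while Sst, Cck, Tac1, Crh and Pdyn were still called.

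**Figure D5:**
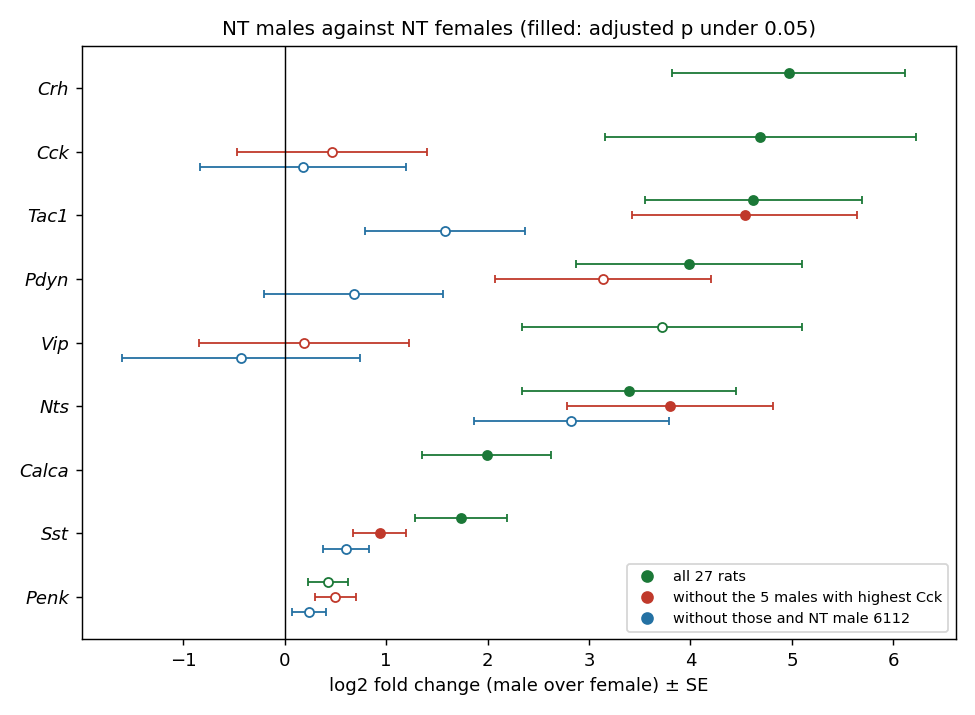
Log2 fold change ± SE of NT males over NT females with all 27 rats, without the 5 males with the highest Cck, and without those and NT male 6112; filled points passed an adjusted p of 0.05. Cck and Vip lie near 0 without the 5 males, as the choice of animals by Cck sets. Tac1 moves mainly with NT male 6112, the animal with the highest Tac1, so its fall follows from the choice as well. Pdyn is at 3.14 without the 5 males and at 0.68 without the 6, and was at 3.59 without NT male 6112 alone (not drawn). No point is filled without the 6. Crh and Calca have no value in the reduced fits because they no longer passed the filter. The size drawn for Crh with all 27 rats depends on the small count added by the model.

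The receptors of these peptides were described from a list of 26 genes, of which 17 were tested. In NT, 7 were higher in males and 1 was lower, with a median difference of 2.14, where 10.1% of all genes were higher and 5.08% lower. In limma-voom, 0 were higher and 2 lower (Crhr1 and Sstr3), and with the title block 0 were called. The higher ones were Oprk1, the dynorphin receptor (4.21 ± 1.06), Sstr1 of somatostatin (3.24 ± 0.82), Cckbr of cholecystokinin (4.85 ± 1.46), Tacr1 of substance P (4.91 ± 1.27), Ntsr1 of neurotensin (5.40 ± 1.37), and Npy1r (2.14 ± 0.68) and Npy5r (4.68 ± 1.18) of neuropeptide Y. NT females had at most 4 counts of Ntsr1 and 3 of Tacr1 and Npy5r, so these 3 genes passed the filter on low counts through other animals. The direction of their differences was thus tied to the filter, and the sizes depend on the small count added by the model. For Oprk1, the lowest of the 5 males with the highest Cck ranked 9 of the 27 animals, at 0.518 CPM. That is under the filter's cutoff of 0.624 CPM, and the animals above it were mostly males. Oprk1 therefore did not pass on females alone, and its direction was tied to the filter too. Crhr1, the main receptor of Crh, was lower in males by -0.66 ± 0.17 (adjusted p = 0.0173), at 72.3 ± 19.5 CPM in NT males (SD, n = 7) and 114 ± 15.5 CPM in NT females (SD, n = 5), the reverse of the direction of its ligand. Cckbr ranked like Cck: the 5 males with the highest Cck had 14.1 to 38.6 CPM and no other animal over 6.05 CPM. Npy1r was also highest in those males, at 10.5 to 34.1 CPM, and Oprk1 and Tacr1 were highest in NT male 6112, at 13.7 and 10.7 CPM. Without the 6 males, 12 of the 17 passed the filter, of which 0 were higher and Crhr1 was still lower. In LB, 0 of the 17 were called, with 9 at an unadjusted p under 0.05, 6 called by DESeq2 (3.37% of genes) and 0 by limma-voom.

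Of 14 tested genes of precursor processing and secretion, 5 were higher in NT males and none lower (10.1% and 5.08% of all genes), but limma-voom called 1, Pam, and the title block 0. They were Pam, which amidates peptides (2.05 ± 0.50), the convertase Pcsk1 (2.86 ± 0.94), and the granins and granule proteins Scg2 (1.36 ± 0.41), Vgf (1.60 ± 0.52) and Chga (0.49 ± 0.17). The other convertase of neurons, Pcsk2, was at 0.06 ± 0.30, and the median of the list was 0.32. Of 10 genes of peptide breakdown and binding, Crhbp, which binds and sequesters Crh, was higher in NT males (5.33 ± 1.48) and Ece1, endothelin-converting enzyme, was lower (-0.92 ± 0.25). Only Ece1 was called in limma-voom, and neither with the title block. Without the 6 males, when 14 and 9 were tested, 0 genes of either list were higher in NT males, Pcsk2, Ptprn and Ptprn2 were lower, and Ece1 was still lower. In LB, 0 genes of either list passed the threshold, with 5 of 14 and 5 of 10 at an unadjusted p under 0.05, DESeq2 called 1 and 2, and limma-voom 0. LB against NT called 0 genes of the receptor, processing and breakdown lists in either sex (edgeR), with 4, 0 and 3 at an unadjusted p under 0.05 in males and 1, 1 and 0 in females.

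Among 27 other neuropeptide precursors, 18 were tested and 3 were higher in NT males: Grp, gastrin-releasing peptide (6.61 ± 1.74), Adcyap1, the precursor of PACAP (2.20 ± 0.61), and Tac3, of neurokinin B (2.24 ± 0.71), where 10.1% of all genes were higher. In limma-voom and with the title block, 0 of the 18 were called. None was lower, and the median was 0.64. Grp was at no more than 4 counts in any NT female and at 0 in 3 of them, so it too passed the filter through other animals. The direction of its difference was tied to the filter, and its size depends on the added count. Tac3 and Grp were high where Cck was, at 4.59 to 10.9 and 4.70 to 21.3 CPM in the 5 males, and Adcyap1 was highest in NT male 6112, at 30.6 CPM. Cort, cortistatin, the close relative of somatostatin, was at 1.48 to 8.52 CPM in the 5 males and at most 0.941 CPM in all other animals, and Cartpt peaked in LB male 9122 at 15.3 CPM, a male of neither set. Neither passed the threshold in NT (adjusted p = 0.0586 and 0.0540), though DESeq2 called both there. Over all males and females, both were among 7 of the 18 called as higher in males, where 16.9% of all genes were. Of these 2 genes, limma-voom called only Cartpt over all animals. Without the 6 males, 0 of the 16 that passed the filter were called. In LB, 0 of the 18 passed the threshold, with 7 at an unadjusted p under 0.05 4 called by DESeq2 and 0 by limma-voom.

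The genes whose level ranked the animals most alike were sought among all genes tested, by Spearman correlation of log2(CPM + 0.5) over the 27 animals. For Cck they were Nrgn, neurogranin, a postsynaptic protein of forebrain neurons (0.957), Camkv (0.947) and Ctxn1, cortexin (0.932). For Vip they were Lhx2 (0.909), Camkv (0.908) and Cck itself (0.903), and for Pdyn they were Elfn1 (0.917), Slit1 (0.910) and Bcl11b (0.905). Sst ranked most like Basp1 (0.945), Nppa (0.940) and Rab26 (0.927), and Crh like LOC102548847 (0.925), Ncald (0.887) and Dleu7 (0.886). Values were lower for Penk (Ntsr2, a neurotensin receptor, 0.829; Resp18, 0.806; B2m, 0.802), Tac1 (Zfp575, 0.816; Tmem179, 0.812; Rnase4, 0.811), Nts (Egfl6, 0.758; Dnaaf4, 0.678; Slc7a10, 0.674) and Calca (Kcns3, 0.754; Mc4r, 0.703; Samd5, 0.690). Nrgn was between 493.1 and 1490 CPM in the 5 males with the highest Cck and at most 313 CPM in the other 22 animals.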

How the data were processed

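Total RNA of IP punches (2-mm punches over 3 sections) was made into libraries with a KAPA mRNA kit. The authors aligned reads to rn6 with STAR 2.5.2b and counted them on genes with featureCounts (Subread 1.5.1), per the submitters' processing notes, and deposited raw counts for 17321 genes. The treatment of strand and of multi-mapping reads is not given in the sources used here. The columns were matched to 27 animals by title, and the groups taken from the labels. Genes were filtered with edgeR's filterByExpr (minimum count 10, minimum total 15), normalised by TMM, and fitted as 4 groups with edgeR 4.0.16 (robust quasi-likelihood test, R 4.3.3), and p-values were adjusted over 12107 genes with a threshold of 0.05. SE is the fold change divided by the root of its F. CPM used the normalised library size, and 0.5 was added before taking log2. DESeq2 1.42.0, limma-voom 3.58.1, other scalings and filters, a title block, and fits without single animals were alternatives. The fit was tested on simulated counts. Of 80 pairs of animals within groups, 0 had identical counts. The members, the lists and the rule for named genes were chosen with earlier results of these data known. All members and the 3 genes most alike were named. So were all genes of the pathway lists called in NT, which was more than the rule first planned. Some genes that were not called in NT, among them Pcsk2, Cort and Cartpt, were named outside that rule.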

Additional observations from a re-analysis of the deposited data

Results flagged for a closer look

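Within each group, the highest and the lowest level of each tested precursor was compared with its nearest neighbour, as the gap divided by the range of the group. Of 36 combinations of gene and group, 9 held an animal past Dixon's 95% value. That value allows about 1 in 20 only for independent, normally distributed values. The levels were not transformed, many were low and skewed, and the 36 combinations share animals, so no rate is set against the 9. NT male 6112 accounted for 4 of the 9, with 39.2 CPM of Tac1, 13.6 CPM of Nts, 6.95 CPM of Calca and 227 CPM of Penk, and the nearest NT males were at 9.93, 5.13, 0.999 and 122 CPM.

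In the NT females, Cck was at 11.1 CPM in animal 2012, Nts at 1.03 CPM in 1013 and Tac1 at 0.804 CPM in 1011, the nearest other NT females being at 3.16, 0.316 and 0.306 CPM. In LB female 8024, Pdyn was at 4.32 CPM, against 1.23 CPM in the next LB female. In LB male 122, Calca was at 0.858 CPM, against 0.480 CPM in the next LB male. The low levels of Tac1 and Nts in the NT females and of Calca in LB males rest on 1 to 16 counts per animal.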

How the results depend on the processing

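The count of 7 members higher in NT males became 8 with DESeq2, 3 with only the compared groups in the fit (7 members tested), 1 with limma-voom, 1 with 10 counts required in every animal (2 members tested), 0 in limma-voom with the beginning of the title as a random block (consensus correlation 0.170), 3 without the 5 males with the highest Cck and 0 without those and NT male 6112. Both of the last were chosen after the data were seen. Leaving out 1 animal gave 3 to 8, and 3 without any of the NT females 1011, 2011, 2012 and 2013. The count of 0 in LB became 4 with DESeq2 and 1 with only the compared groups, and 0 to 4 on leaving out 1 animal (4 without LB female 5022, 1 without NT male 3113 or LB male 7121). The count of 8 over all animals became 4, 1, 2, 4 and 2 with limma-voom, 10 counts in every animal, the block, and without the 5 and the 6 males, and 6 to 9 on leaving out 1 animal. Counts of 0 for the rearing differences and the interaction stayed 0 throughout, but for rearing over both sexes DESeq2 gave only 1 member an adjusted p. The causes were not tested.

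Directions that turned, in log2: Vip in NT, -0.43 without the 6 males; Nts in LB, -0.0049 in limma-voom and -0.067 with the block; and LB against NT in males, Tac1 0.39, 0.42 and 1.35 in limma-voom, with the block and without the 6 males, and Pdyn 1.22 without the 6 males. Leaving out 1 animal also turned LB against NT in males for Cck (-0.39 to 1.03), Vip (-0.47 to 1.28), Crh (-0.70 to 0.13) and Tac1 (-1.24 to 0.38), and in females for Pdyn (-0.10 to 1.06). None of these passed the threshold.

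Over all genes, the 1840 calls in NT, 66.6% higher in males, became 1247 (49.5%) in limma-voom, 1929 (77.0%) with upper-quartile scaling, 2 with the block and 752 without the 6 males. The 30 calls in LB became 408 with DESeq2, 4 with the block and 13 without the 5 males. Each group holds 2 or 3 sets of titles with a shared beginning, so variation between sets could be estimated, and the block fit includes it; the labels do not say what a set is. No paired analysis was possible because the labels give no number shared between groups. Depth limits Crh, Nts and Calca, at a median of 3, 8 and 6 counts.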

Other observations

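Some receptors of the peptides did not pass the filter on low counts and were seen in few animals; the 3 named here were chosen after their values were seen. Calcr, the calcitonin receptor, was at 18.3 CPM in NT male 6112, the animal with the highest Calca, and at most 4.87 CPM in the other animals, the highest of them being LB male 9122. Oprm1, the mu opioid receptor, was at 4.03 CPM in NT male 6112 and at most 0.451 CPM in any other animal. Oprd1, the delta opioid receptor, was between 0.296 and 1.13 CPM in the 5 males with the highest Cck and at most 0.173 CPM in the other 21 animals beside NT male 6112, which had 0.728 CPM.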
